A study of Rattus norvegicus with 6 samples.

Results

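The genes described here are 10 members of the pathways by which vascular endothelial growth factor (VEGF) and the angiopoietins act on blood vessels: the VEGF receptor genes Kdr, Flt1 and Flt4, the neuropilin genes Nrp1 and Nrp2, the Tie receptor genes Tek and Tie1, the angiopoietin genes Angpt1 and Angpt2, and the ligand gene Vegfc. They were taken by symbol from the 32623 genes of the deposited tables, and all 10 were found under 1 identifier each. RNA was sequenced from primary liver sinusoidal endothelial cells of Han Wistar rats, held in a perfused device together with hepatocytes, stellate cells and hepatic macrophages. The physiological group was kept at 1 mmHg and the pathological group at 12 mmHg, both with a shear stress of 1.15 dyn/cm2 over 48 h, and each group had 3 libraries. The labels give no age, sex or genotype of the rats, and they do not say how many animals or cultures stood behind the libraries, so the tests speak only of library-to-library spread, part or all of which may be technical.

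Kdr encodes VEGF receptor 2, the main signalling receptor for VEGF-A, and Flt1 encodes VEGF receptor 1, which binds the same ligand tightly and also exists as a soluble decoy. Flt4 encodes VEGF receptor 3, the receptor for VEGF-C and VEGF-D, known from lymphatic vessels and also made by the sinusoidal endothelium of the liver. Neuropilins are co-receptors shared by VEGFs and class 3 semaphorins. Tek encodes Tie2, which is activated by angiopoietin-1, a product of perivascular cells, whereas angiopoietin-2 is stored by endothelial cells and can oppose it. Tie1 has no established ligand of that kind and modulates Tie2. In the liver, VEGF signalling is known to maintain the fenestrated state of sinusoidal endothelium.

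The libraries held between 8925149 and 24025406 counts, and transcripts of other liver cells made up very different shares of them. Summed CPM (counts per 1000000 of the TMM-scaled library total) of 24 hepatocyte markers ranged from 246 to 52000 at 1 mmHg and from 403 to 76100 at 12 mmHg. Physiological replicates 2 and 3 and pathological replicate 3 were the libraries above 10000 CPM and are called hepatocyte-RNA-rich below, and the other 3 are called hepatocyte-RNA-poor. The 14 matched stellate and mesenchymal markers summed to 553 to 1260 CPM at 1 mmHg and 441 to 1610 CPM at 12 mmHg. In the hepatocyte-RNA-poor libraries most of that sum was the single gene Reln. It held 518 of 553.2 CPM in physiological replicate 1, and 426 of 441 and 435 of 469.3 CPM in pathological replicates 1 and 2. In the rich libraries Reln was at most 78.9 CPM, so the other stellate markers differed far more than the sums. The 12 macrophage markers summed to 653 to 1320 CPM at 1 mmHg and 46.7 to 1550 CPM at 12 mmHg. The 6 cholangiocyte markers summed to 10.5 to 91.9 CPM and 6.39 to 20.7 CPM. Of the endothelial markers, Cdh5 (VE-cadherin) was between 184 and 320 CPM in every library, while the 21 matched genes of the endothelial list summed to 1196, 3050 and 2106 CPM at 1 mmHg and to 604.3, 569.5 and 2972 CPM at 12 mmHg, lowest in pathological replicates 1 and 2. Sinusoidal markers were uneven. Their sum was 1481, 6200 and 4988 CPM at 1 mmHg and 832.1, 528.7 and 7181 CPM at 12 mmHg. Among them, the scavenger receptor gene Stab2 stood at 8.09, 208 and 173 CPM at 1 mmHg and at 2.79, 15.3 and 204 CPM at 12 mmHg. The lymphatic regulator gene Prox1 was at most 1.22 CPM, and Mmrn1 was at 0 in all libraries. In such bulk samples, fewer cells of a type and less RNA per cell cannot be told apart.

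None of the members passed the test of 12 mmHg against 1 mmHg. By the edgeR quasi-likelihood fit, 0 of the 9 members that passed the low-count filter had a Benjamini-Hochberg adjusted p under 0.05, where 0% of 12742 genes did (smallest adjusted p 1). None of the 9 had an unadjusted p under 0.05, against 0.259% of all genes. DESeq2 and limma-voom also called 0 members. Over all genes DESeq2 called 0.252% of the 16253 that it gave an adjusted p, and limma-voom 0% of the 12742. At an unadjusted p under 0.05 limma-voom had 1 member, against 1.25% of all genes. The fitted log2 fold change, given throughout as 12 mmHg against 1 mmHg, was negative for all 9, where it was negative for 47.5% of all genes. The median was -0.64 over the 9 members and 0.05 over all genes tested. The median standard error of the log2 fold change was 0.86 over the 9 members, against 1.72 over all genes. Physiological replicate 1 held the highest value of 5 members and physiological replicate 2 of 3, while the lowest values fell 3 each on physiological replicate 3, pathological replicate 1 and pathological replicate 2.

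**Figure D1:**
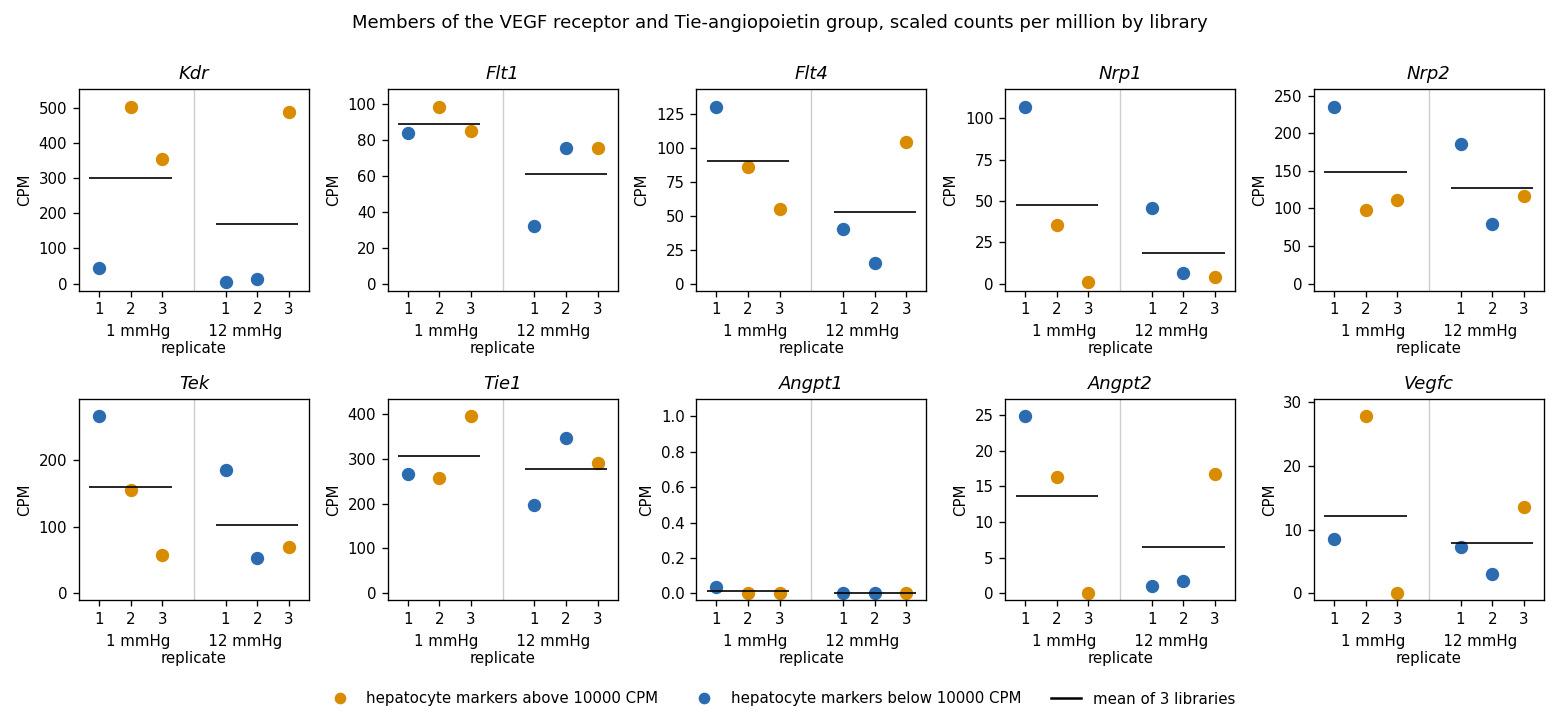
CPM (vertical axis, linear and separate for each gene) of the 10 members in each of the 6 libraries, with 1 mmHg on the left and 12 mmHg on the right of each panel. Points are libraries, orange where hepatocyte markers summed to over 10000 CPM and blue where they did not, and black lines are means of 3 libraries; Kdr separates by colour, Flt1 by pressure, and Tie1 varies by 2-fold in all.

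Among the VEGF receptors, Kdr stood at 43.8, 502 and 355 CPM in physiological replicates 1, 2 and 3 and at 4.18, 13.6 and 487 CPM in pathological replicates 1, 2 and 3. The highest library was 120-fold above the lowest, a wider range than that of 79.6% of the 7730 tested genes counted in all 6 libraries. The groups overlapped, since pathological replicate 3 was above 2 of the physiological libraries. The 3 hepatocyte-RNA-rich libraries, with 355 to 502 CPM, all lay above the 3 poor ones, with 4.18 to 43.8 CPM, whatever the pressure. Kdr was the only member with that order, which 18.3% of all tested genes had, and 0 members had the reverse order, which 30.2% had. The hepatocyte-RNA-rich libraries also had the highest sums of sinusoidal, endothelial, stellate and macrophage markers, so they differed in more than hepatocyte RNA. Between the pressures, the means of Kdr were 300 ± 234 and 168 ± 276 CPM (SD, n = 3), with a log2 fold change of -0.83 (95% CI -4.49 to 2.82, edgeR adjusted p = 1). Without pathological replicate 3 it was -5.05, and without physiological replicate 2 it was -0.22. The estimate also depended on the method, since with all 6 libraries limma-voom gave -3.57, and -5.45 with sample weights.

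Flt1 stood at 83.5, 98.3 and 84.8 CPM at 1 mmHg and at 32, 75.2 and 75.2 CPM at 12 mmHg. It was the 1 member whose groups did not overlap, every pathological library being lower, where 3.05% of all genes had groups that did not overlap in this direction and 4.61% in either. The means were 88.9 ± 8.18 and 60.8 ± 25 CPM (SD, n = 3), with a log2 fold change of -0.55 (95% CI -2.08 to 0.99, edgeR adjusted p = 1). An exact two-sided permutation test gave p = 0.1, the smallest that 3 against 3 libraries allow. The separation was narrow, 83.5 against 75.2 CPM, and with unscaled library totals the groups overlapped, leaving 0 members apart. Without pathological replicate 1 the log2 fold change of Flt1 was -0.24. The counts are per gene, so the soluble form of Flt1 cannot be told apart from the receptor.

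Flt4 stood at 130, 86 and 54.9 CPM at 1 mmHg and at 39.8, 15.1 and 104 CPM at 12 mmHg. The lowest values were in pathological replicates 1 and 2, but pathological replicate 3 was above 2 physiological libraries. Its log2 fold change was -0.77 (95% CI -2.76 to 1.22). Without pathological replicate 3 it was -1.71, and with the hepatocyte-RNA-rich libraries alone it was 0.58.

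The stretches before the annotated start of Kdr and Tie1 are shown because these genes had the widest and the narrowest variation of the 5 receptor tyrosine kinase genes, together with that of Flt4, which lay between them. They are RefSeq sequences of build GRCr8 at chr14:32571813-32572030 (plus strand), chr5:137305048-137305231 (minus strand) and chr10:34414584-34414833 (plus strand), 218, 184 and 250 bases long, and each ends at the base before the annotated gene. The gene models behind the deposited counts are of a build not given in the sources used here. Capitals mark GGAA and, for the other strand, TTCC, the core bound by ETS factors, a family with a known role in endothelial genes.
Kdr: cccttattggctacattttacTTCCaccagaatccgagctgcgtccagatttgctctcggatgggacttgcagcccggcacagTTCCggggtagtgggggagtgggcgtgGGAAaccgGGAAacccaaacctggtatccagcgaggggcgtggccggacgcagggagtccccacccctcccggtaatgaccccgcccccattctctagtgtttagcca
Tie1: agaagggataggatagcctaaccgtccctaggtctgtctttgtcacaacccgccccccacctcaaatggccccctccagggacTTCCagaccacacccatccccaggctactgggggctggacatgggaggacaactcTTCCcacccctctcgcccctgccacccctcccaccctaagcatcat
Flt4: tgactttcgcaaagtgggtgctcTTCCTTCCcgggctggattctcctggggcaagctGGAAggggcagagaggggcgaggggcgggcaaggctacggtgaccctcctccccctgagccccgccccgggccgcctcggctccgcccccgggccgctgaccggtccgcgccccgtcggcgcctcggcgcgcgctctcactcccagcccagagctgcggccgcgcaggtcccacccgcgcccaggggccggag
The core occurred 4 times in the Kdr stretch, 2 times in that of Tie1 and 3 times in that of Flt4, counted on both strands. Of 33469 rat promoter windows, 90.7%, 87.1% and 93.2% held it at these lengths, with medians of 2, 2 and 3 occurrences. GGGCGG, the core bound by Sp1-type factors, occurred 1, 1 and 3 times, and 27.0%, 21.6% and 30.5% of the windows held it. These matches describe the letters and not binding.

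The neuropilins differed from each other in spread. Nrp1 stood at 107, 35.2 and 0.713 CPM at 1 mmHg and at 46, 6.3 and 3.79 CPM at 12 mmHg, a 150-fold range. The value of physiological replicate 3 rests on 5 counts (exact Poisson 95% interval 0.231 to 1.66 CPM, counting error only), while physiological replicate 1 had 3254 counts. The highest libraries were replicate 1 of each group, and the pathological libraries lay within the range of the physiological ones. For Nrp1 the log2 fold change was -1.35 (95% CI -5.1 to 2.4, edgeR adjusted p = 1), and it was 0.17 without physiological replicate 1 and -3.25 without pathological replicate 1.

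Nrp2, the neuropilin that also serves VEGF receptor 3, varied 2.95-fold over the 6 libraries. It stood at 235, 97.3 and 111 CPM at 1 mmHg and at 185, 79.6 and 116 CPM at 12 mmHg, so replicate 1 was again the highest library of each group. For Nrp2 the fitted log2 difference was -0.22 (95% CI -1.74 to 1.3), and this turned to 0.38 without physiological replicate 1 and to 0.03 without pathological replicate 2.

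Of the Tie receptors, Tek stood at 266, 156 and 58 CPM at 1 mmHg and at 186, 53.7 and 69.4 CPM at 12 mmHg. The ranges overlapped, and the means were 160 ± 104 and 103 ± 72 CPM (SD, n = 3). The fitted log2 difference of Tek was -0.64 (95% CI -2.48 to 1.2, edgeR adjusted p = 1), and it was 0.04 without physiological replicate 1 and -1.39 without pathological replicate 1.

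Tie1 had the narrowest range of the members. It stood at 266, 258 and 395 CPM at 1 mmHg and at 198, 346 and 292 CPM at 12 mmHg, a 2-fold range, smaller than that of all but 4.41% of the 7730 genes counted in all libraries. The means were 306 ± 76.9 and 279 ± 75.3 CPM (SD, n = 3). The log2 fold change was -0.14 with a 95% CI of -1.42 to 1.15, an interval that leaves room for a change of more than 2-fold either way. The sign depended on single libraries, with 0.08 without physiological replicate 3 and 0.06 without pathological replicate 1.

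The angiopoietin genes were far apart in detection. Angpt1 had 1 count in physiological replicate 1 and 0 in the other 5 libraries, where 0 counts allow up to 0.107 to 0.428 CPM (3 counts of the scaled total), so no fold was computed and the gene did not enter the test. Angpt2 stood at 24.8, 16.3 and 0 CPM at 1 mmHg and at 1, 1.71 and 16.7 CPM at 12 mmHg. Physiological replicate 3, the shallowest library, had 0 counts of Angpt2, which allows up to 0.428 CPM, while pathological replicates 1 and 2 had 28 and 36 counts. High and low libraries thus occurred at both pressures. The log2 fold change was -1.09 (95% CI -6.17 to 4, edgeR adjusted p = 1), with -3.34 without pathological replicate 3 and -0.34 without physiological replicate 1.

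Vegfc, the ligand of VEGF receptor 3, stood at 8.49, 27.8 and 0 CPM at 1 mmHg and at 7.22, 3.08 and 13.6 CPM at 12 mmHg. The library without counts was again physiological replicate 3, and the groups overlapped. Its fitted log2 difference was -0.6 (95% CI -5.35 to 4.15), which was 0.84 without physiological replicate 2 and -1.22 without pathological replicate 3.

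**Figure D2:**
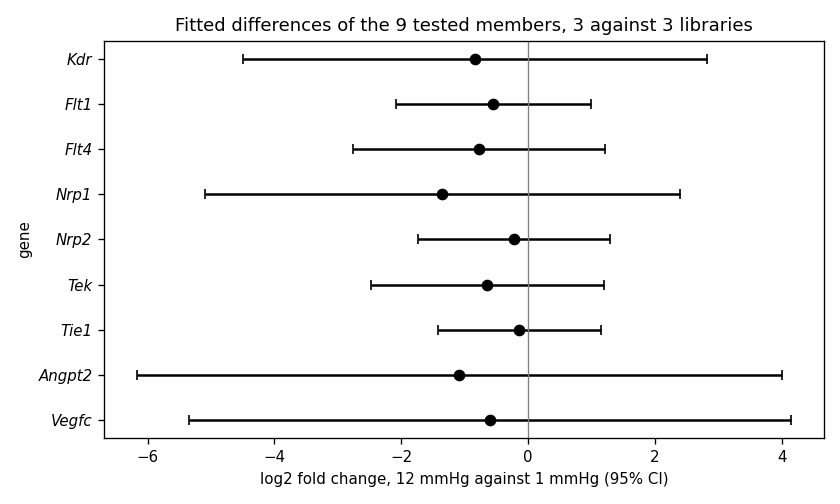
Log2 fold change of 12 mmHg against 1 mmHg (horizontal axis) for the 9 tested members, with points for the edgeR estimates and bars for 95% confidence intervals over 3 against 3 libraries. All 9 points lie below 0 and all 9 intervals include 0, from the narrowest for Tie1 (-1.42 to 1.15) to the widest for Angpt2 (-6.17 to 4).

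Values within libraries of like hepatocyte RNA content are given because that content differed between libraries of the same pressure. Its part in the results was not tested. Among the 3 hepatocyte-RNA-poor libraries, physiological replicate 1 lay above both pathological libraries for 8 of the 9 tested members, all but Tie1, where 41.2% of all genes had that order. The sum of the endothelial list outside the members also had it, at 1196 CPM against 604.3 and 569.5 CPM. So had Cdh5, at 320 CPM against 199 and 220 CPM. Kdr was 10.5-fold and 3.21-fold higher in physiological replicate 1 than in pathological replicates 1 and 2, Angpt2 24.7-fold and 14.5-fold, and Flt4 3.27-fold and 8.64-fold. Among the 3 hepatocyte-RNA-rich libraries, pathological replicate 3 lay below both physiological libraries for 1 member, Flt1, against 33.8% of all genes, and above both for 3, Flt4, Nrp2 and Angpt2, against 28.5%. The ratio of Kdr in physiological replicates 2 and 3 to pathological replicate 3 was 1.03 and 0.728. With 1 library on a side in each part, these ratios have no replicate check. With the rich libraries alone the median log2 fold change of the members was -0.03, with all genes at -0.58, and with the poor libraries alone it was -1.13, with all genes at -0.1. With a term for hepatocyte RNA in the fit of all libraries it was -0.79, with all genes at -0.24.

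**Figure D3:**
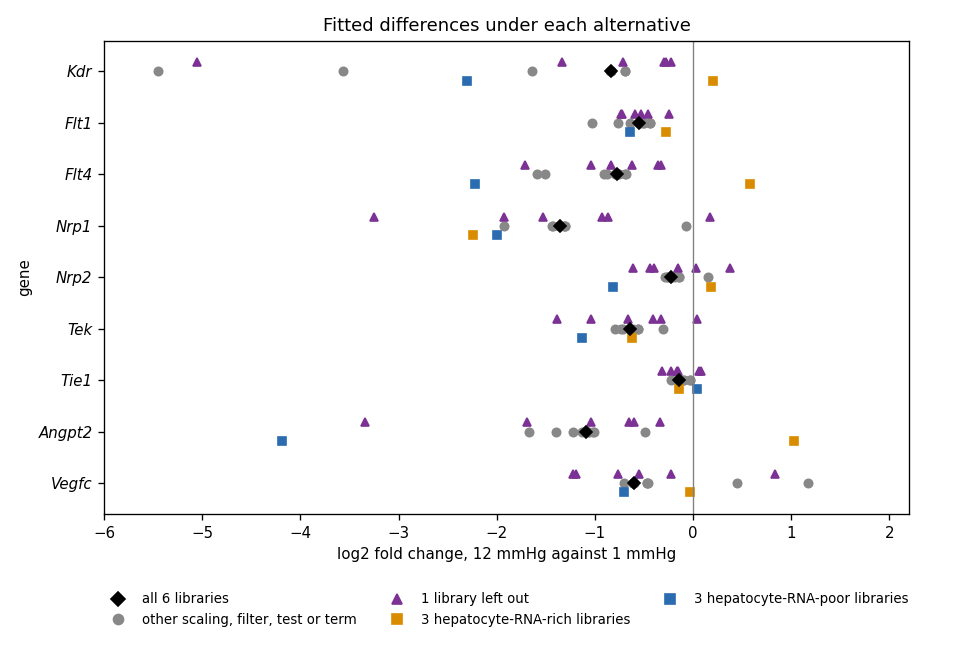
Log2 fold change of 12 mmHg against 1 mmHg (horizontal axis) of the 9 tested members under every alternative, with the fit of all 6 libraries as black diamonds, left-out libraries as triangles, the hepatocyte-RNA-rich and hepatocyte-RNA-poor libraries alone as orange and blue squares, and other settings as grey circles. Flt1 stays below 0 in all, from -1.03 to -0.24, while Kdr runs from -5.45 to 0.2.

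Ratios of 2 members were taken within each library, and the added 0.5 CPM makes them depend on the scaling where a member is near 0, as Angpt1 was throughout and Nrp1 and Angpt2 were in physiological replicate 3. They were compared over the samples on the log2(CPM + 0.5) scale with exact two-sided permutation tests, adjusted by Benjamini-Hochberg over 5 ratios, and all 5 had an adjusted p of 0.9, where the smallest exact p that 3 against 3 libraries allow is 0.1. The ratio of Kdr to Flt1, the signalling receptor against the one that can act as a decoy, was -0.93, 2.35 and 2.06 at 1 mmHg and -2.79, -2.42 and 2.69 at 12 mmHg. It differed by -2 between the pressures (exact p = 0.4), by -3.77 without pathological replicate 3 and by -1.03 without pathological replicate 1. The hepatocyte-RNA-rich libraries held its 3 positive values. The ratio of Flt4 to Kdr ran the other way, at 1.56, -2.54 and -2.68 against 3.11, 0.14 and -2.22, a difference of 1.56 (exact p = 0.5), which was 0.18 without pathological replicate 1 and 2.95 without physiological replicate 1. Kdr is the numerator of the former ratio and the denominator of the latter. Its range was 120-fold, against 3.08-fold for Flt1 and 8.64-fold for Flt4, so the opposite direction is not a separate result. The ratio of Tie1 to Tek was 0, 0.72 and 2.76 against 0.09, 2.68 and 2.07, with replicate 1 of each group lowest, and differed by 0.45 (exact p = 0.8). The ratio of Nrp1 to Nrp2 was -1.13, -1.46 and -6.53 against -2, -3.56 and -4.77, a difference of -0.41 (exact p = 0.8). The ratio of Angpt2 to Angpt1 differed by -0.6 (exact p = 0.9) and repeats the values of Angpt2, because Angpt1 was at or near 0 throughout.

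**Figure D4:**
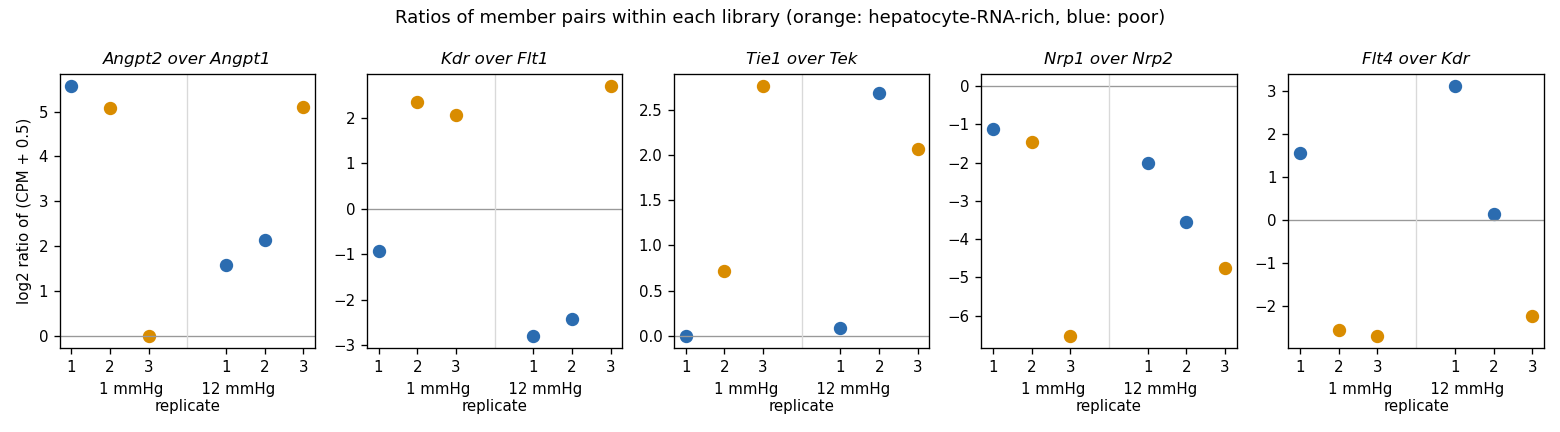
Log2 ratio of the CPM + 0.5 of 2 members within each library (vertical axis, separate for each ratio), with 1 mmHg on the left and 12 mmHg on the right of each panel and points for libraries, orange where rich and blue where poor in hepatocyte RNA. The ratio of Kdr to Flt1 is 2.06 to 2.69 in the orange libraries and -2.79 to -0.93 in the blue ones.

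Set against other endothelial genes, most members had a positive difference between the pressures. This measure, a difference of mean log2(CPM + 0.5), is unlike the fitted log2 fold change. It also rises where the mean of the endothelial genes falls. For each library the mean log2(CPM + 0.5) of 21 endothelial genes outside the members was 4.87, 6.53 and 5.52 at 1 mmHg and 3.25, 3.05 and 6.41 at 12 mmHg, so it was lowest in pathological replicates 1 and 2. Relative to that mean, Kdr alone of the 10 members had a negative difference between the pressures, at -1.25 (exact permutation p = 0.5, two-sided, adjusted p = 0.778), which was -2.13 without pathological replicate 3 and -0.36 without pathological replicate 1. With 1 library left out the difference also turned negative for Flt1, Flt4, Nrp1, Tek or Angpt2. Tie1 was 3.19, 1.48 and 3.11 above the endothelial mean at 1 mmHg and 4.38, 5.38 and 1.78 above it at 12 mmHg, a difference of 1.25 (exact p = 0.4) that was 0.49 without pathological replicate 2 and 2.29 without pathological replicate 3. Tek differed by 0.8, Nrp2 by 1.21 and Flt1 by 0.76, with exact p of 0.7, 0.4 and 0.6. The adjusted p over the 10 members was at least 0.778 for each. With 3 against 3 libraries the exact p could not fall below 0.1, so none of these differences could pass the threshold, and the value for Angpt1 rests on 1 count.

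The genes whose level over the 6 libraries was most like that of a member were found by Pearson's r of log2 CPM among the tested genes with a mean log2 CPM of at least 3. With Kdr these were the cytokine gene Il33 (r = 0.997), the hyaluronan receptor gene Lyve1 (0.996) and the lectin gene Clec1b (0.995). Lyve1, a marker of sinusoidal endothelium, stood at 248, 1690 and 1620 CPM at 1 mmHg and at 41.3, 75.9 and 2020 CPM at 12 mmHg, the same pattern of high and low libraries as Kdr. With Tie1 they were the endothelial adhesion receptor gene Adgrl4 (0.961), the integrin adaptor gene Fermt2 (0.957) and Stc1 (0.936). With Angpt2 they were the sphingosine phosphate receptor gene S1pr1 (0.979), Osbpl9 (0.942) and Ubash3b (0.941), and with Nrp1 Cr1l (0.999), Wdr7 (0.985) and Josd2 (0.985). These correlations rest on 6 libraries that differ in depth and composition, and the highest of 6795 genes are high by selection.

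Of the other VEGF ligands, Vegfa, the main ligand of Kdr and Flt1, stood at 97.2, 25.7 and 29.2 CPM at 1 mmHg and at 119, 254 and 20.9 CPM at 12 mmHg. It was higher in the hepatocyte-RNA-poor libraries than in the rich ones, the reverse of Kdr, and the groups overlapped. With all 6 libraries its log2 fold change was 1.37 (95% CI -0.94 to 3.68, edgeR adjusted p = 1), and -0.37 with the rich libraries alone. It was 0.47 without pathological replicate 2 and 2.35 without physiological replicate 1. Vegfb, a ligand of Flt1, measured 17.8 ± 3.21 and 15.5 ± 9.5 CPM (SD, n = 3). Vegfd, the other ligand of VEGF receptor 3, and Pgf, placental growth factor, were at 0 in physiological replicate 3 and pathological replicate 3 (0 counts allow up to 0.428 and 0.284 CPM there) and at most 9.14 and 4.59 CPM elsewhere. Of the proteases and cofactor that mature VEGF-C and VEGF-D, 3 of 6 were tested and 0 passed. Furin measured 72.1 ± 52.2 and 88.5 ± 53.2 CPM, Pcsk5 7.38 ± 6.05 and 1.3 ± 1.92 CPM, and Pcsk7 31.6 ± 11.6 and 31.4 ± 27.1 CPM.

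Among class 3 semaphorins and the plexins that signal with neuropilins, 7 of 12 genes were tested, 0 passed, 2 had positive and 5 negative fold changes, and the median was -0.18. Sema3a, a repulsive ligand of Nrp1, stood at 0.559, 4.11 and 7.13 CPM at 1 mmHg and at 0.286, 0 and 0 CPM at 12 mmHg. It was the 1 gene of the 7 tested whose groups did not overlap, against 3.05% of all genes in this direction. The fitted log2 difference was -5.21 (95% CI -11.39 to 0.98), fitted with 0 counts in 2 libraries. It was -9.07 without pathological replicate 1 and -4.45 without physiological replicate 3. Plxnd1 measured 82.4 ± 31 and 43.1 ± 33.1 CPM, Plxna1 16.5 ± 22.5 and 26.7 ± 14.7 CPM, and Sema3c 7.7 ± 12.2 and 13.9 ± 12.7 CPM.

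In the list of phosphatases, sheddases and partners of these receptors, 11 of 13 genes were tested, 0 passed, 7 were positive and 4 negative, and the median was 0.32. Ptprb encodes VE-PTP, the endothelial phosphatase that restrains Tie2 and VEGF receptor 2. It stood at 116, 67 and 44.6 CPM at 1 mmHg and at 31.8, 13.9 and 13.8 CPM at 12 mmHg. Of the 11 tested it was the 1 gene whose groups did not overlap, against 3.05% of all genes in this direction. The log2 fold change of Ptprb was -1.94 (95% CI -3.89 to 0.01, unadjusted p = 0.0514, edgeR adjusted p = 1), between -2.46 and -1.4 under the 17 alternatives. Adam17, a protease that sheds membrane receptors, measured 92.7 ± 105 and 177 ± 101 CPM, Itgb1 865 ± 450 and 1300 ± 1020 CPM, and Itga5 30.3 ± 26.9 and 23.4 ± 10.7 CPM.

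In the list of signal transducers, 26 of 28 genes were tested, 0 passed, 16 were positive and 10 negative, and the median was 0.17. Plcg1, the phospholipase recruited by activated VEGF receptor 2, stood at 72.8, 123 and 124 CPM at 1 mmHg and at 37.2, 21.9 and 27.8 CPM at 12 mmHg. Its lowest physiological library was above its highest pathological one, and the hepatocyte-RNA-rich and hepatocyte-RNA-poor libraries overlapped. Of the 26 tested genes it was the 1 whose groups did not overlap, against 3.05% of all genes in this direction. The means were 107 ± 29.3 and 28.9 ± 7.72 CPM (SD, n = 3), and the log2 fold change of Plcg1 was -1.88 (95% CI -3.46 to -0.3, unadjusted p = 0.0254, edgeR adjusted p = 1). It lay between -2.14 and -1.28 under the 17 alternatives, with 0 of them past the threshold. Plcg1 was the 1 gene of the 71 tested over these 6 lists with an unadjusted p under 0.05, against 0.259% of all genes. The adaptor genes Shc1 and Grb2 measured 163 ± 56.6 and 217 ± 25.5 CPM, and 163 ± 24.5 and 208 ± 95.8 CPM. Dok2, an adaptor of Tie2 also made by blood cells, was at 45.9 CPM in physiological replicate 3 and at most 1.28 CPM elsewhere.

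Among genes commonly induced by VEGF in endothelium, 20 of 22 were tested, 0 passed, 7 were positive and 13 negative, and the median was -0.17. Esm1, a proteoglycan of sprouting endothelium, stood at 147, 12.1 and 55.4 CPM at 1 mmHg and at 9.76, 2.04 and 0 CPM at 12 mmHg. It was the 1 gene of the 20 tested whose groups did not overlap, against 3.05% of all genes in this direction. The fitted log2 difference of Esm1 was -4.18 (95% CI -8.52 to 0.17, edgeR adjusted p = 1). That difference was -6.11 without pathological replicate 1 and -2.95 without physiological replicate 1. Rcan1, a calcineurin inhibitor, measured 148 ± 92.7 and 65.3 ± 11.8 CPM. Dusp5, a phosphatase of ERK, measured 79.4 ± 75 and 214 ± 182 CPM, and the nuclear receptor gene Nr4a3 0.546 ± 0.896 and 5.54 ± 7.33 CPM, with 13.9 CPM in pathological replicate 3.

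**Figure D5:**
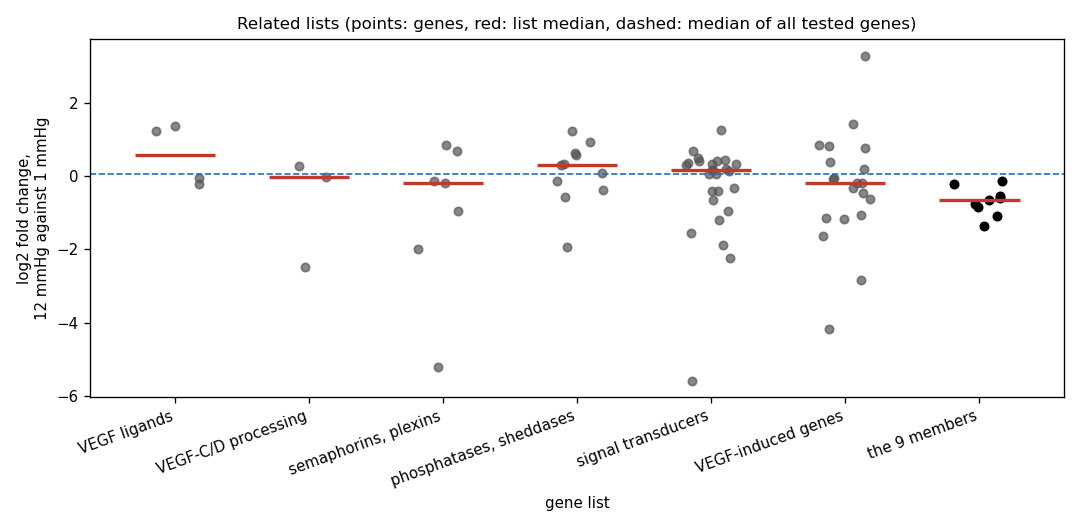
Log2 fold change of 12 mmHg against 1 mmHg (vertical axis) of each tested gene in the 6 related lists and of the 9 tested members, with red bars for list medians and a dashed line for the median of all tested genes, 0.05. List medians run from -0.18 to 0.59, and that of the members is -0.64.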

How the data were processed

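The deposited values are expected counts (estimated reads per gene, not normalized, 1 library per file), per the file headers. The submitters' processing notes name STAR, RSEM and limma without versions. Neither genome build nor annotation nor strand setting was stated in the labels or headers. Between 4.33% and 10.4% of the deposited count values per library were not whole, none of them for the 10 members, and all were rounded. Gene-level counts do not separate isoforms or antisense transcripts.

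Groups were taken from the labels, and replicates numbered in deposition order. Counts were tested over all genes with edgeR 4.0.16 in R 4.3.3 (quasi-likelihood, TMM scaling, filterByExpr, 12742 of 32623 genes, Benjamini-Hochberg, threshold 0.05, two-sided). Intervals are 95%, and counting intervals and the floor of 3 counts cover counting error only. DESeq2 1.42.0, limma-voom 3.58.1, other scalings and filters, left-out libraries and hepatocyte RNA terms were alternatives.

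The members, lists and alternatives were chosen with earlier results of these data known. Named pathway genes were the 2 with the smallest p per direction and list, and all 4 other VEGF ligands. Of the list and marker symbols 187 matched, 1 the first of several identifiers, and 4 not. RefSeq promoter sequences (GRCr8) matched 7 of 10 members.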

Additional observations from a re-analysis of the deposited data

How the results depend on the processing

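In the alternatives to the fit that kept more than 1 library in each group, 0 members passed the threshold. Over all genes, DESeq2 called 41, or 0.252% of the 16253 with an adjusted p, and each other such alternative called 0. The smallest adjusted p of a member was 0.207, for Kdr in limma-voom with sample weights. With those weights 2 members had an unadjusted p under 0.05, and so had 2528 of all 12742 genes. The fitted difference of Flt1 was negative in all 17 alternatives, and that of each other member turned in at least 1. Median log2 fold changes of the members ranged, with 1 library left out, from -1.04 without physiological replicate 3 to -0.33 without pathological replicate 2. The count of members whose groups did not overlap ranged from 1 to 3 with 1 library left out, the 3 being without pathological replicate 3. That count was 0 with unscaled totals, 4 with the hepatocyte-RNA-rich libraries alone and 8 with the poor ones alone, where fewer libraries make a lack of overlap more likely by construction. Of all genes, 33.8% had the 12 mmHg library lowest and 28.5% had it highest among the rich libraries. Among the poor libraries 41.2% had both 12 mmHg libraries below the 1 mmHg library. The share over all genes was not computed for left-out libraries or unscaled totals. The median of the members was -0.03 with the rich libraries alone, -1.13 with the poor ones alone and -0.31 in limma-voom with sample weights. DESeq2 size factors put the median over all genes at 0.15, against 0.05, and that of the members to -0.56, so their distance was -0.71.

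The values that turned sign are log2 fold changes, and the cause was not tested. With the rich libraries alone Kdr was 0.2, Flt4 0.58, Nrp2 0.18, Angpt2 1.03, Vegfa -0.37, Vegfb 0.56, Vegfd -6.27, Furin -0.57, Sema3c -5.94, Plxnd1 0.05, Itgb1 -1.41, Itga5 0.22, Grb2 -0.44 and Dusp5 -0.11. With the poor libraries alone Tie1 was 0.04, Furin -0.12, Pcsk5 1.02, Pcsk7 0.12, Sema3c -0.05, Plxna1 -0.61, Shc1 -0.04, Nr4a3 -0.19 and Rcan1 0.43. A hepatocyte RNA term gave Vegfd -0.65, Furin -0.15, Sema3c -1.09 and Itgb1 -0.19. In limma-voom Vegfc was 1.17, and with sample weights Vegfc was 0.45, Nrp2 0.15, Pgf 1.6, Pcsk7 0.46 and Itga5 0.11. Pgf and Pcsk7, at -0.04 and -0.01 with all libraries, were 0.04 and 0.08 with DESeq2 size factors, 0.01 and 0.04 with upper quartile scaling and 0.04 and 0.09 in DESeq2, and Pcsk7 was 0.01 with no count filter.

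With 1 library left out, log2 fold changes were lowest without pathological replicate 1 and highest without physiological replicate 1 for Nrp1 (-3.25 and 0.17), Nrp2 (-0.61 and 0.38) and Tek (-1.39 and 0.04). Tie1 was at -0.32 without pathological replicate 2 and at 0.08 without physiological replicate 3, and Vegfc at -1.22 without pathological replicate 3 and at 0.84 without physiological replicate 2. Other ranges were -0.61 to 0.23 for Vegfb, -0.43 to 2.29 for Vegfd, -1.2 to 0.57 for Pgf, -0.12 to 1.12 for Furin, -0.47 to 0.58 for Pcsk7, -0.06 to 1.19 for Itgb1, -0.83 to 0.7 for Itga5 and 0 to 0.67 for Grb2. Ratio differences ran from -2.38 to 0.41 for Angpt2 over Angpt1 and from -2.15 to 0.55 for Nrp1 over Nrp2, lowest without physiological replicate 3 and highest without physiological replicate 1, and Tie1 over Tek from -0.13 without physiological replicate 1 to 1.25 without physiological replicate 3. Relative to the endothelial mean, differences ran from -0.18 to 1.01 for Flt4, -1.03 to 2.58 for Nrp1, -0.23 to 2.06 for Tek, -0.96 to 2.19 for Angpt2 and -0.04 to 1.64 for Flt1. Low counts limit Nrp1, Angpt2 and Vegfc in physiological replicate 3 and Angpt1 throughout. The labels give sample numbers 2, 11 and 22 at 1 mmHg and 3, 9 and 23 at 12 mmHg, and no shared replicate numbers. They do not say whether any libraries were paired, so no paired analysis was run.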

Other observations

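A pair of genes outside the members, chosen after their values were seen, showed how far the libraries differed within 1 pressure. Cxcl12, a chemokine in the list of VEGF-induced genes, stood at 3.69, 589 and 1030 CPM at 1 mmHg and at 3.43, 23.6 and 1410 CPM at 12 mmHg, high in the same 3 libraries as Kdr. Reln, a secreted glycoprotein gene that stands in both the lymphatic and the stellate marker list, ran the other way. It stood at 518, 78.9 and 25.8 CPM at 1 mmHg and at 426, 435 and 0.948 CPM at 12 mmHg. Reln made up most of the lymphatic sum, which ranged from 25.9 to 525 CPM at 1 mmHg and from 1.04 to 436 CPM at 12 mmHg. In the hepatocyte-RNA-poor libraries it also made up most of the stellate sum.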
